A study of Mus musculus with 11 samples.

Results

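Glycolysis breaks glucose down to pyruvate, and glycogen is the branched glucose store that feeds it in muscle. The genes followed here are 38 named enzymes, transporters and regulators of these pathways, chosen by symbol, current or former, from the annotation of the array. Of these 38 symbols, 35 had a named probe, and they matched 36 genes and 62 probes out of 19057 genes and 45281 probes in all. Hk2, Gpi1 and Pfkfb1 were not analysed here because no probe carried their symbol. Hk1, Pgm2 and Ppp1r3a had a probe that was not detected on every array of any group, so 33 genes were tested among 10134 genes in all. The symbol Pgm2 also stood formerly for Pgm1, the phosphoglucomutase of that older name, and Pgm1 was tested. Eno1 was matched only through Eno1b, a near-identical copy, so its signal may belong to either gene.

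In muscle, glucose enters through transporters, is phosphorylated, and runs through a chain of enzymes to pyruvate, which lactate dehydrogenase turns into lactate for export. Phosphofructokinase commits the sugar to this path, and pyruvate kinase is its last step. Glycogen is built from UDP-glucose by glycogen synthase on a glycogenin core and is taken apart by glycogen phosphorylase, which phosphorylase kinase switches on when calcium rises. Fast fibers are rich in these enzymes and in glycogen and use them for brief, intense work.

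Total RNA of the quadriceps was measured in 11 female CD2F1 mice of 5 to 6 weeks of age on Illumina MouseWG-6 v2.0 arrays, with 1 array per mouse. There were 3 mice with moderate cachexia (labelled early, 10% weight loss), 4 with severe cachexia (labelled severe, 15% weight loss) and 4 control mice without a tumor. Cachexia, the wasting that accompanies cancer, was brought about by cells of C26, a mouse colon adenocarcinoma line, placed under the skin. Labels and methods differ on the vendor of the mice and on the site of implantation, and the study's text elsewhere calls its controls PBS-injected. Mice are called by the numbers of their columns in the signal table, which show its group (those named Late were taken as the severe group by elimination), whereas the labels number replicates in another way and the numbers were not matched. The 3 groups share a strain, a sex and a labelled age, and the results hold for this 1 tumor line. Severe mice were taken some days later after the injection than moderate mice, so stage and time with the tumor cannot be told apart.

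The arrays had 18681 to 19277 detected probes in moderate, 18935 to 19809 in severe and 18626 to 20006 in control mice. The values given below are log2 signals after normalization (neqc), 1 probe per gene. Changes are differences of group means on that scale with their standard error (SE) from a limma model over all 11 arrays, and p-values were adjusted over all 10134 genes by the Benjamini-Hochberg method, with a threshold of 0.05. All 12 myofiber markers were detected on every array, with mean deposited signals of 14586 to 25920 on a scale that ends at 29977.5. Among them Mb was lower and Des higher in severe mice. Markers of slow fibers fell, 7 of 8 in moderate and 6 of 8 in severe mice, while none of the 9 fast-fiber markers passed the test in either stage. The fast-fiber probes were much brighter (median signal 22997, against 2579 for the slow-fiber probes), so near the top of the scale that differences may be compressed, and the 2 lists are not compared. Severe mouse 11 stood apart: the median of 8 macrophage markers lay 1.48 above the control mean, against 0.11 to 0.39 in the other severe mice, and that of 7 adipocyte markers lay 0.20 above it, against -1.54 to -1.09. It was also the highest severe mouse in the medians of 5 neutrophil markers (2.14, against 0.61 to 1.68) and 5 red blood cell markers (1.52, against 0.14 to 1.02). Of these, Mmp9 rose in moderate mice, and S100a8, Retnlg, Hbb-bt and Alas2 rose in severe mice. Of 8 fibroblast markers, 5 fell in each stage (Col1a1, Col1a2, Lum, Fap and Thy1), while Col3a1, Pdgfra and Dcn did not pass. Their median change was -1.146 in moderate and -0.934 in severe cachexia, and their part in the results below was not tested. Since whole muscle was measured, fewer cells of a type and less RNA per cell cannot be told apart.

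The glycolytic genes that moved mostly fell, and the genes of glycogen synthesis that moved mostly rose. In moderate cachexia 12 of the 33 genes (36.4%) passed the test, against 41.1% of all genes, so their share lay near the background. Of these, 2 rose (Ugp2 and Ppp1r3c; 6.06% of the 33, against 18.9% of all genes) and 10 fell (30.3%, against 22.2%). In severe cachexia 20 (60.6%) passed, against 33.3% of all genes. There 6 rose (18.2%, against 15.6%) and 14 fell (42.4%, against 17.8%). The median log2 change of the 33 genes was -0.33 in moderate and -0.42 in severe cachexia, and over all genes it was -0.033 and 0.0048. These numbers rest in part on single mice. Without moderate mouse 5, 6 genes passed in moderate cachexia (18.2%, against 25.4% of all genes), and without control mouse 1 or 2 or moderate mouse 12, 8 passed (24.2%, against 33.4%, 36.5% and 30.2%). Without control mouse 2, 12 passed in severe cachexia (36.4%, against 28.3%), and without severe mouse 13, 13 passed (39.4%, against 23.8%) with a median of -0.231. Both stages are set against the same 4 control mice.

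**Figure D1:**
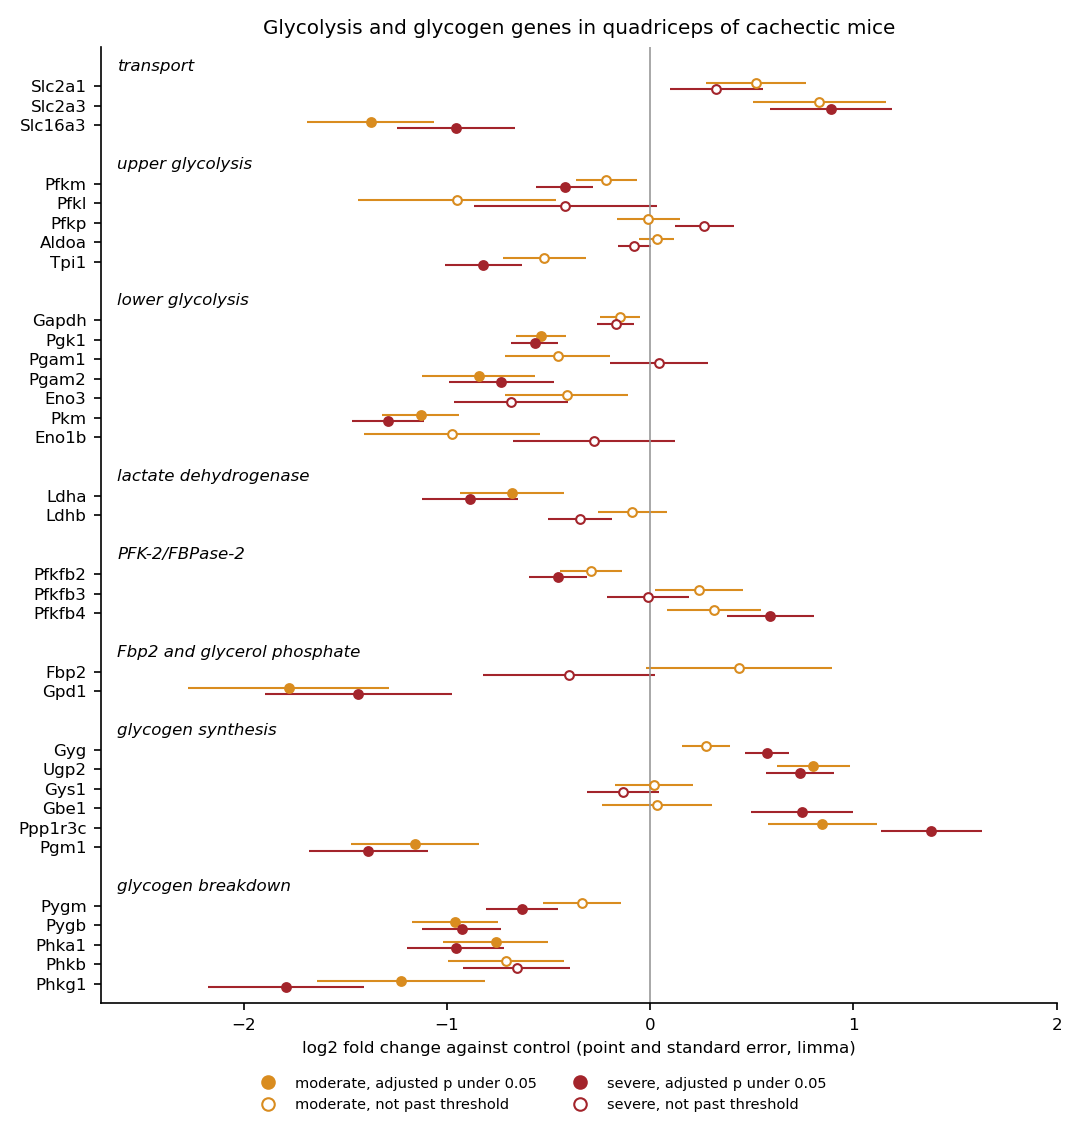
Log2 fold change against control (horizontal axis, point with standard error) of the 33 tested genes, grouped by role, in moderate (orange) and severe (red) cachexia. Filled points passed an adjusted p of 0.05: in severe cachexia 14 lie left of 0 and 6 right of it, and 4 of those 6 are genes of glycogen synthesis.

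Glucose and lactate transporters went different ways. Slc16a3, the transporter by which fast fibers export lactate, read 5.00, 6.14 and 5.29 in moderate mice and 5.68, 5.62, 6.34 and 5.93 in severe mice, against 6.51, 7.70, 6.57 and 6.62 in controls. All 7 cachectic mice lay below all controls, and control mouse 2 lay far above the other controls. Slc16a3 had 3 probes, of which 1 passed the detection filter, so its change could not be checked with another probe. The probe used was dim, with a mean log2 signal of 5.47 in moderate and 5.89 in severe mice, against 6.85 in controls. The size of its fall is therefore less certain. The log2 change of Slc16a3 was -1.37 (SE 0.31, adjusted p = 0.00447) in moderate and -0.96 (SE 0.29, adjusted p = 0.0234) in severe cachexia. Without control mouse 2 the severe change was -0.674 with an adjusted p of 0.0634, and it also missed the threshold without severe mouse 13 (-0.865, adjusted p = 0.0633) or severe mouse 16 (-0.968, adjusted p = 0.0506). Slc2a3, a high-affinity glucose transporter best known from neurons and leukocytes, rose by 0.89 (SE 0.30, adjusted p = 0.0363) in severe cachexia. The moderate change was 0.83 (SE 0.33, adjusted p = 0.0555), and all moderate mice (6.64 to 7.57) lay above all controls (5.72 to 6.56). The part of the leukocyte markers given above in these values was not tested. The highest Slc2a3 values were in severe mice 11 (7.75) and 15 (7.69), and the other severe mice, at 6.51 and 6.70, lay close to the highest control at 6.56. The Slc2a3 call was lost without any 1 of severe mouse 11 (0.694, adjusted p = 0.0729), severe mouse 15 (0.716, adjusted p = 0.0998), control mouse 1 (0.903, adjusted p = 0.0695), control mouse 2 (0.707, adjusted p = 0.11) or control mouse 3 (0.967, adjusted p = 0.0505). Slc2a1, the widely expressed glucose transporter, had changes of 0.52 (adjusted p = 0.105) and 0.33 (adjusted p = 0.288) and passed in neither stage.

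In the upper part of glycolysis, from phosphofructokinase to triose phosphate isomerase, none of 5 genes passed in moderate cachexia and 2 fell in severe cachexia. Tpi1, triose phosphate isomerase, read 13.77, 14.02 and 13.62 in moderate mice and 13.92, 12.87, 13.87 and 13.37 in severe mice, against 14.27, 14.36, 14.35 and 14.32 in controls. Neither stage overlapped the controls, whose values spanned less than the gap to the nearest severe mouse. The log2 change of Tpi1 was -0.82 (SE 0.19, adjusted p = 0.00595) in severe and -0.52 (SE 0.20, adjusted p = 0.0557) in moderate cachexia. Pfkm, the muscle subunit of phosphofructokinase, fell by 0.42 (SE 0.14, adjusted p = 0.0332) in severe cachexia. That call was lost without any 1 control mouse (adjusted p = 0.0783, 0.0748, 0.0585 and 0.0587 without mice 1 to 4, with changes of -0.437 to -0.403), without severe mouse 11 (-0.367, adjusted p = 0.0621) and without severe mouse 13 (-0.296, adjusted p = 0.096). The other phosphofructokinase subunits and aldolase did not pass: Pfkl, the liver subunit, had changes of -0.95 (SE 0.49) and -0.42 (SE 0.45), Pfkp, the platelet subunit, -0.0091 and 0.27, and Aldoa 0.033 and -0.077. Pfkl shows how much 1 mouse can weigh. It read 7.84, 7.71 and 7.76 in moderate mice and 10.16, 7.72, 7.45 and 7.88 in severe mice, against 8.52, 8.85, 9.18 and 8.34 in controls, the 10.16 being severe mouse 11. Without that mouse Pfkl fell by 0.949 (adjusted p = 0.00123) in moderate and by 1.04 (adjusted p = 0.000838) in severe cachexia. A second, dim Pfkl probe had changes of 0.16 (adjusted p = 0.395) and 0.098 (adjusted p = 0.602) with all mice.

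Of the 7 genes of lower glycolysis 3 fell in each stage and none rose. Pkm, pyruvate kinase of muscle, read 12.11, 12.90 and 12.28 in moderate mice and 12.43, 12.01, 12.39 and 12.22 in severe mice, against 13.44, 13.94, 13.41 and 13.43 in controls. Every cachectic mouse lay below every control, and the nearest pair was moderate mouse 9 and control mouse 3. The log2 change was -1.13 (SE 0.19, adjusted p = 0.000815) in moderate and -1.29 (SE 0.18, adjusted p = 0.000316) in severe cachexia, which is 0.458 and 0.409 of the control level. Pgk1, phosphoglycerate kinase, which makes the first ATP of the pathway, read 12.22, 12.66 and 12.37 in moderate mice and 12.46, 12.32, 12.45 and 12.32 in severe mice, against 12.83, 13.16, 12.83 and 13.003 in controls. It fell by 0.54 (SE 0.12, adjusted p = 0.00481) and by 0.57 (SE 0.12, adjusted p = 0.00317), again with no overlap. A second, dim Pgk1 probe went the other way, by 0.44 (adjusted p = 0.0237 over all probes) and 0.40 (adjusted p = 0.0316), and with the mean of both probes the changes were -0.0477 and -0.0845 and passed in neither stage. The 2 probes were not told apart by transcript here.

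Pgam2, the muscle phosphoglycerate mutase, fell by 0.84 (SE 0.28, adjusted p = 0.0281) in moderate and by 0.73 (SE 0.26, adjusted p = 0.043) in severe cachexia, and its groups overlapped. Its severe call was lost without any 1 of control mice 2, 3 and 4, moderate mouse 5 and severe mice 13 and 16 (changes of -0.749 to -0.485, adjusted p of 0.0548 to 0.123). Its moderate call was lost without any 1 of control mice 2, 3 and 4 and moderate mice 5 and 12 (-0.86 to -0.593, adjusted p of 0.0519 to 0.138). Gapdh, glyceraldehyde phosphate dehydrogenase and a common reference gene, read 14.16, 14.08 and 13.88 in moderate mice and 14.05, 13.87, 14.11 and 14.06 in severe mice, against 14.13, 14.29, 14.14 and 14.19 in controls. All severe mice lay below all controls by a small margin, and the change did not pass in moderate (-0.15, 95% interval -0.36 to 0.064) or severe cachexia (-0.17, -0.37 to 0.029). Eno3, the muscle enolase, had changes of -0.41 and -0.69 (adjusted p = 0.3 and 0.0759). It passed in severe cachexia without severe mouse 11 (-0.867, adjusted p = 0.0221) or severe mouse 15 (-0.92, adjusted p = 0.0193). Pgam1, the widely expressed phosphoglycerate mutase, and Eno1b did not pass in either stage, and severe mouse 11 was the highest of all 11 mice in both (7.93 and 8.13). Without severe mouse 11, Eno1b fell in moderate (-0.974, adjusted p = 0.00124) and severe cachexia (-0.811, adjusted p = 0.00443), and Pgam1 fell in moderate cachexia (-0.454, adjusted p = 0.0498).

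Ldha, the lactate dehydrogenase subunit that predominates in fast muscle, read 13.14, 13.68 and 13.33 in moderate mice and 13.75, 12.47, 13.67 and 12.84 in severe mice, against 13.98, 14.14, 14.07 and 14.07 in controls. All cachectic mice lay below the controls, and severe mice 13 and 16 lay lowest. The fall was 0.88 (SE 0.24, adjusted p = 0.013) in severe and 0.68 (SE 0.26, adjusted p = 0.0484) in moderate cachexia. The moderate call sat at the threshold and was lost without any 1 control mouse (adjusted p = 0.0751 to 0.0978, changes of -0.709 to -0.653), without moderate mouse 5 (-0.558, adjusted p = 0.18) and without moderate mouse 12 (-0.652, adjusted p = 0.118). Ldhb, the subunit of oxidative muscle and heart, had changes of -0.087 and -0.34 (adjusted p = 0.709 and 0.107) and did not pass.

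**Figure D2:**
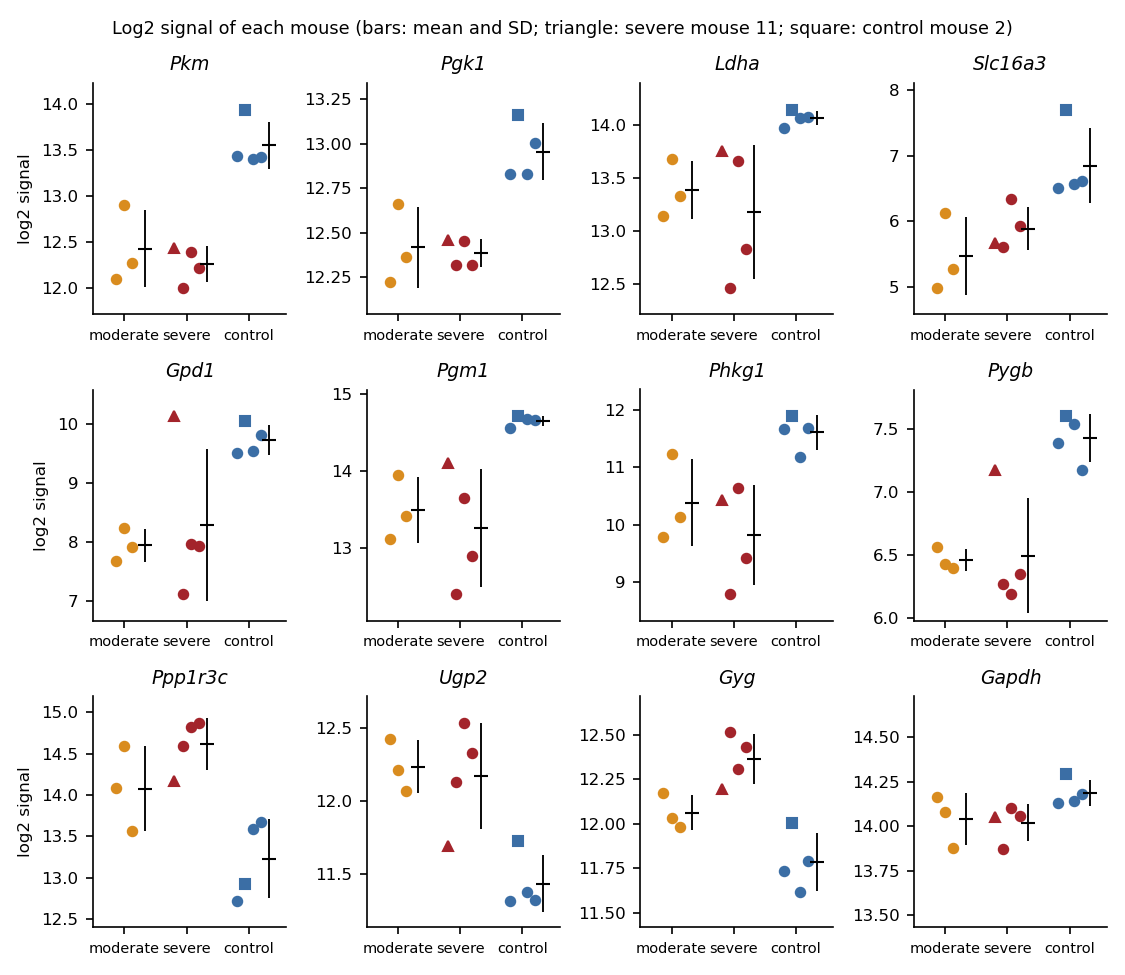
Log2 signal (vertical axis, a scale of its own in each panel) of 12 genes in each mouse by group (horizontal axis), with bars for mean and SD. Pkm, Pgk1, Ldha, Slc16a3 and Pgm1 lie below every control in all 7 cachectic mice, and severe mouse 11 (triangle) lies just above the highest control in Gpd1.

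The bifunctional enzymes of the Pfkfb family set the level of fructose 2,6-bisphosphate, the activator of phosphofructokinase. None of the 3 tested passed in moderate cachexia. In severe cachexia Pfkfb2, the isozyme first known from heart, fell by 0.45 (SE 0.14, adjusted p = 0.0253), and all severe mice (7.51 to 7.97) lay below all controls (8.14 to 8.23). Pfkfb4, first known from testis, rose by 0.59 (SE 0.21, adjusted p = 0.0488), with 10.19 to 11.09 in severe mice and 9.78 to 10.38 in controls. Both calls were close to the threshold. The Pfkfb2 call was lost without control mouse 1 (-0.441, adjusted p = 0.0602), control mouse 2 (-0.438, adjusted p = 0.0515), control mouse 4 (-0.465, adjusted p = 0.0504) or severe mouse 13 (-0.412, adjusted p = 0.0678), and the Pfkfb4 call without any 1 control, moderate mouse 5 or 12 or severe mouse 15 or 16 (0.466 to 0.675, adjusted p of 0.051 to 0.134). Pfkfb3 had changes of 0.24 and -0.0097 (adjusted p = 0.403 and 0.975). Its only probe was dim, with deposited signals of 6.14 to 32.8, and was detected on 2 moderate, 2 severe and 4 control arrays. Without moderate mouse 9 the moderate change of Pfkfb3 was 0.571 (adjusted p = 0.0122), which is less certain for so dim a probe.

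Of the genes at the side branches, Gpd1, the cytosolic glycerol phosphate dehydrogenase that links glycolysis to lipid synthesis, had the largest fall of the 33 genes in moderate cachexia. It read 7.68, 8.24 and 7.92 in moderate mice and 10.13, 7.12, 7.97 and 7.94 in severe mice, against 9.51, 10.05, 9.54 and 9.81 in controls. The 3 moderate mice and severe mice 13, 15 and 16 lay well below the lowest control, and severe mouse 11 lay above the highest. The log2 change was -1.78 (SE 0.49, adjusted p = 0.0125) in moderate and -1.43 (SE 0.46, adjusted p = 0.0286) in severe cachexia, and without severe mouse 11 the severe change was -2.05 (adjusted p = 3.02e-05). The moderate call was lost without moderate mouse 5 (-1.64, adjusted p = 0.0559). The severe call was lost without any 1 of control mice 1, 2 and 4 and severe mice 13, 15 and 16 (changes of -1.51 to -1.04, adjusted p of 0.0502 to 0.0842). Gpd1 is also abundant in adipocytes, and of the 7 adipocyte markers tested 4 fell in moderate (Adipoq, Lep, Plin1 and Fabp4) and 3 in severe mice (Adipoq, Lep and Plin1), with summed normalized signals (linear scale) of 17090 to 17470 in moderate mice, 11970 to 20190 in severe mice and 18120 to 22530 in controls. Of the other 3 listed adipocyte markers, Retn did not pass the detection filter and Cfd and Adrb3 had no named probe. Their part in the result was not tested. Fbp2, the fructose bisphosphatase of muscle, had changes of 0.44 and -0.40 (adjusted p = 0.471 and 0.496) and was spread widely among severe mice, with 10.22, 10.62, 12.68 and 11.04. Without severe mouse 15 it fell in severe cachexia (-0.911, adjusted p = 0.0263).

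Genes of glycogen synthesis moved in both directions, with 2 of 6 rising and 1 falling in moderate cachexia and 4 rising and 1 falling in severe cachexia. Ppp1r3c, the subunit that brings protein phosphatase to glycogen and thereby activates glycogen synthase, read 14.08, 14.59 and 13.57 in moderate mice and 14.17, 14.59, 14.81 and 14.87 in severe mice, against 12.72, 12.93, 13.59 and 13.68 in controls. All severe mice lay above all controls, and moderate mouse 12 lay within the range of the controls, whose mice 1 and 2 lay well below mice 3 and 4. The rise was 1.38 (SE 0.25, adjusted p = 0.00152) in severe cachexia and 0.85 (SE 0.27, adjusted p = 0.0229) in moderate cachexia. In severe mouse 16 its deposited signal was the highest value on the array, 29977.5, so the size of the rise may be understated. The moderate call was lost without control mouse 1 (0.679, adjusted p = 0.0684), control mouse 2 (0.747, adjusted p = 0.065), moderate mouse 5 (0.847, adjusted p = 0.0678) or moderate mouse 9 (0.594, adjusted p = 0.1). Ugp2, which makes the UDP-glucose that glycogen synthase uses, read 12.43, 12.21 and 12.07 in moderate mice and 11.69, 12.13, 12.54 and 12.33 in severe mice, against 11.32, 11.73, 11.37 and 11.32 in controls. Only severe mouse 11 overlapped the controls, of which mouse 2 was the highest. It rose by 0.80 (SE 0.18, adjusted p = 0.0041) in moderate and by 0.74 (SE 0.17, adjusted p = 0.00552) in severe cachexia.

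Gyg, glycogenin, the protein on which a new glycogen particle is started, read 12.17, 12.03 and 11.98 in moderate mice and 12.19, 12.52, 12.31 and 12.43 in severe mice, against 11.74, 12.01, 11.62 and 11.79 in controls. All severe mice lay above all moderate mice and all controls. The rise was 0.58 (SE 0.11, adjusted p = 0.00223) in severe cachexia, and the moderate change of 0.28 did not pass (adjusted p = 0.0796). It passed without control mouse 2 (0.348, adjusted p = 0.0332), and a second probe of Gyg rose in both stages (0.56 with an adjusted p of 0.0063 in moderate and 0.59 with 0.00387 in severe cachexia). Gbe1, the glycogen branching enzyme, rose by 0.75 (SE 0.25, adjusted p = 0.0349) in severe cachexia, with 6.13, 7.02, 7.57 and 7.48 in severe mice against 6.25, 6.21, 6.41 and 6.33 in controls. The lowest of these, severe mouse 11, lay below the controls. The Gbe1 call was lost without any 1 control mouse or severe mouse 13, 15 or 16 (0.574 to 0.785, adjusted p of 0.0577 to 0.111). Gys1, the glycogen synthase of muscle, had changes of 0.020 and -0.13 (adjusted p = 0.942 and 0.589) and did not pass. Pgm1, phosphoglucomutase, which joins glycogen to glycolysis in both directions, fell instead. It read 13.11, 13.95 and 13.41 in moderate mice and 14.11, 12.40, 13.65 and 12.89 in severe mice, against 14.56, 14.71, 14.67 and 14.66 in controls. The controls lay close together and all cachectic mice lay below them. The fall was 1.16 (SE 0.32, adjusted p = 0.0112) in moderate and 1.39 (SE 0.29, adjusted p = 0.00383) in severe cachexia, and the moderate call was lost without moderate mouse 5 (-0.968, adjusted p = 0.0632).

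Of the 5 genes of glycogen breakdown none rose in either stage, 3 fell in moderate and 4 fell in severe cachexia. Phkg1, the catalytic subunit of muscle phosphorylase kinase, read 9.78, 11.24 and 10.14 in moderate mice and 10.44, 8.78, 10.64 and 9.42 in severe mice, against 11.67, 11.89, 11.18 and 11.70 in controls. Severe mice did not overlap the controls, and moderate mouse 9 did. Its fall of 1.79 (SE 0.38, adjusted p = 0.00418), to 0.289 of the control level, was the largest of the 33 genes in severe cachexia. In moderate cachexia it fell by 1.23 (SE 0.41, adjusted p = 0.031), a call that was lost without any 1 of control mice 1, 2 and 4 and moderate mice 5 and 12 (-1.2 to -0.923, adjusted p of 0.0619 to 0.152). Phka1, the muscle regulatory subunit of the same kinase, read 9.65, 10.64 and 10.23 in moderate mice and 10.36, 9.38, 10.40 and 9.75 in severe mice, against 10.94, 11.18, 10.79 and 10.80 in controls. No cachectic mouse reached the controls. It fell by 0.96 (SE 0.24, adjusted p = 0.00913) in severe and by 0.76 (SE 0.26, adjusted p = 0.0322) in moderate cachexia, and the moderate call was lost without control mouse 1 or 2 or moderate mouse 5 or 12 (-0.787 to -0.498, adjusted p of 0.0639 to 0.178). Phkb, the third subunit measured, had changes of -0.71 and -0.66 (adjusted p = 0.0625 and 0.0721). It passed in both stages without control mouse 3 (-0.879 with an adjusted p of 0.0339 in moderate and -0.827 with 0.0397 in severe cachexia).

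Both phosphorylases were lower in severe cachexia. Pygm, the muscle glycogen phosphorylase, whose loss causes McArdle disease, read 12.29, 12.67 and 11.96 in moderate mice and 12.12, 11.61, 12.44 and 11.86 in severe mice, against 12.66, 12.62, 12.48 and 12.79 in controls. All severe mice lay below the controls, the highest of them (12.44) just below the lowest control (12.48), and the moderate mice overlapped the controls. It fell by 0.63 (SE 0.18, adjusted p = 0.0169) in severe cachexia, and the moderate change of -0.33 did not pass (adjusted p = 0.181). Without severe mouse 13 (-0.498, adjusted p = 0.051) or severe mouse 16 (-0.581, adjusted p = 0.0518) the severe call was lost. Pygb, the brain form, read 6.57, 6.43 and 6.40 in moderate mice and 7.18, 6.27, 6.19 and 6.35 in severe mice, against 7.39, 7.60, 7.54 and 7.17 in controls. Severe mouse 11 lay at the level of control mouse 4 and every other cachectic mouse lay below all controls. It fell by 0.96 (SE 0.21, adjusted p = 0.00374) in moderate and by 0.93 (SE 0.20, adjusted p = 0.00399) in severe cachexia.

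Groups did not overlap in 16 of the 33 genes for moderate against control (48.5%, against 47.7% of all genes) and in 13 for severe against control (39.4%, against 32.3%). At a change of at least 2-fold and an unadjusted p under 0.05, limma called 5 of the 33 genes in each stage (15.2%), against 9.66% of all genes in moderate and 6.77% in severe cachexia. Severe and moderate cachexia were not separated by the test in any of the 33 genes, against 6.98% of all genes called. At an unadjusted p under 0.05 the limma test gave 2 of the 33 (Gbe1 and Gyg), against 23.8% of all genes, and the t-test that the methods name, adjusted in the same way, gave 0. The severe minus moderate difference of Gyg was 0.30 (95% interval 0.043 to 0.56, adjusted p = 0.145) and that of Gbe1 was 0.71 (0.13 to 1.30, adjusted p = 0.126). Gyg and Pfkp were the genes in which all severe mice lay above all moderate mice, 6.06% of the 33 against 10.8% of all genes, and 20.1% of all genes had no overlap in either direction. Without severe mouse 11, Gbe1 was higher in severe than in moderate cachexia (a difference of 1.02, adjusted p = 0.00396). The median difference of the 33 genes was -0.064, and that of all genes was 0.020.

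**Figure D3:**
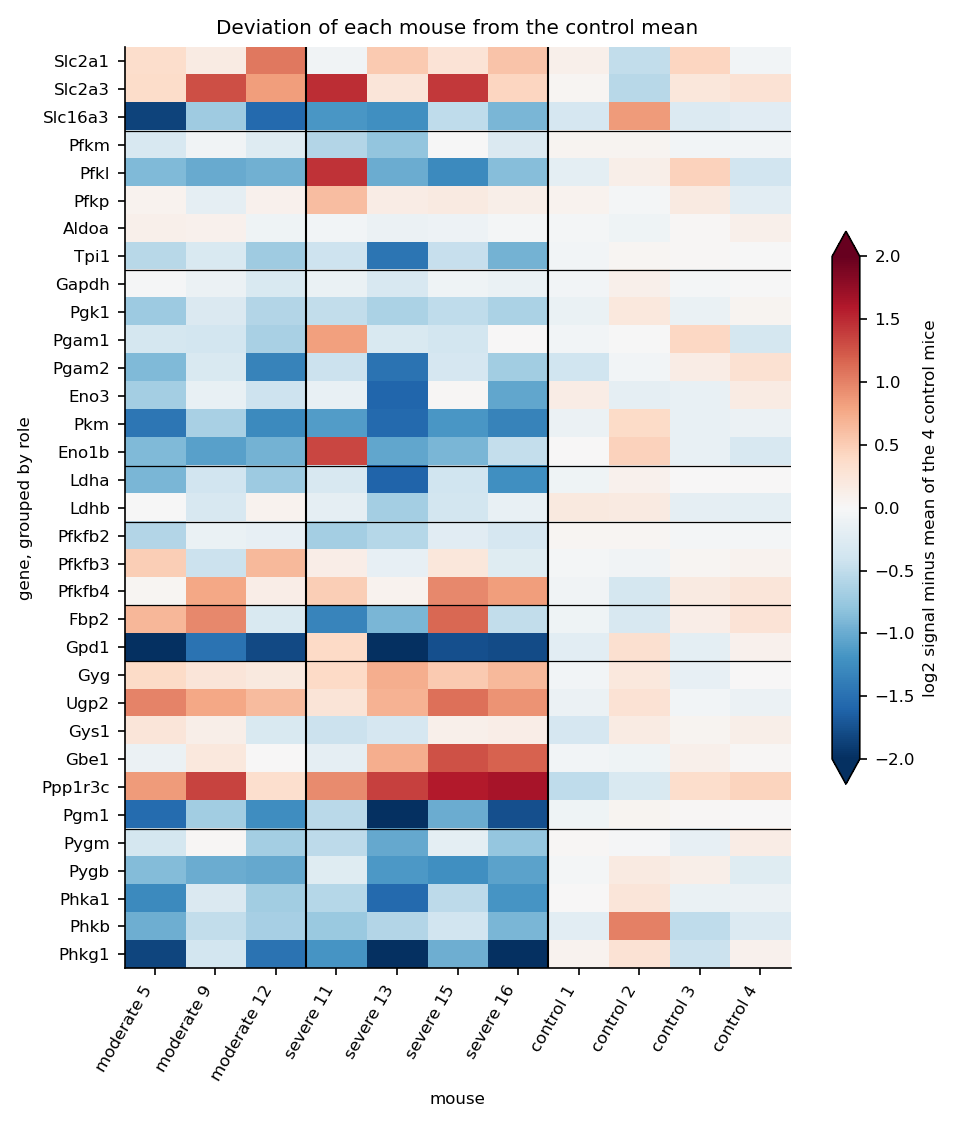
Log2 signal minus the mean of the 4 control mice (color, cut at 2 in both directions) for the 33 tested genes (rows, grouped by role) in the 11 mice (columns; moderate, severe, control). Severe mouse 13 is the lowest severe mouse in 19 genes, and moderate mouse 9 is the highest moderate mouse in 20.

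The mice of a group differed along the whole pathway. Severe mouse 13 was the lowest of the severe mice in 19 of the 33 genes (57.6%, against 30.1% of all genes), among them Pkm, Tpi1, Ldha, Pgm1, Phkg1 and Pygm. Severe mouse 15 was the highest in 15 (45.5%, against 23.9%). Among moderate mice, mouse 9 was the highest in 20 genes (60.6%, against 38.3%), and moderate mouse 5 was the lowest in 15 (45.5%, against 33.8%). Control mouse 2 was the highest control in 17 genes (51.5%, against 30.5%). Moderate mouse 9 also had the lowest slow-fiber markers, with a median deviation of -2.90 from the control mean, against -1.26 and -0.63 in moderate mice 5 and 12. The summed normalized signal (linear scale) of the 8 slow-fiber markers was 4113 to 18370 in moderate mice, 8071 to 22250 in severe mice and 18080 to 37790 in controls, and their part in these results was not tested.

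Severe mouse 11 differed from the other severe mice by unequal amounts from gene to gene. Over all probes past the filter, its median correlation with its group was 0.9724, against 0.9808 to 0.9886 for the other severe mice. Severe mouse 11 lay above the mean of severe mice 13, 15 and 16 in 21 of the 33 genes, by at least 1 log2 unit in 5 (Pfkl by 2.48, Gpd1 by 2.45, Eno1b by 2.14, Pgm1 by 1.13 and Pgam1 by 1.04), and it lay at least 1 below it in 2 (Fbp2 and Gbe1, both by -1.23). The same counts were not taken over all genes, so whether they are particular to these 33 cannot be told. For Pkm the difference was 0.23 and for Pgk1 it was 0.10. Severe mouse 11 was the highest severe mouse in 12 genes (36.4%, against 30.5% of all genes) and the lowest in 8 (24.2%, against 35.2%). In this mouse the summed normalized signal of the 8 macrophage markers was 8472, against 3828 to 4259 in the other severe mice, 4153 to 4979 in moderate mice and 2743 to 3221 in controls. Macrophage markers that rose were Cd14, Cd163 and Mrc1 in moderate and Cd163, Mrc1, Lyz2 and Ctss in severe mice. Itgam and Fcgr1 did not pass the detection filter, and Cd68 had no named probe. The medians of adipocyte and fibroblast markers in severe mouse 11 (0.20 and 0.0068) lay near the controls, against -1.54 to -1.09 and -1.72 to -0.76 in the other severe mice. The part of these cells in the values of this mouse was not tested. Without severe mouse 11, 17 genes passed in moderate (51.5%, against 45.0% of all genes) and 21 in severe cachexia (63.6%, against 40.4%), including all 12 genes called with all mice in moderate and 18 of the 20 in severe cachexia. Pfkm and Slc2a3 were lost in severe cachexia, and Eno1b, Eno3 and Pfkl were gained. In moderate cachexia Eno1b, Pfkl, Pgam1, Slc2a3 and Tpi1 were gained.

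**Figure D4:**
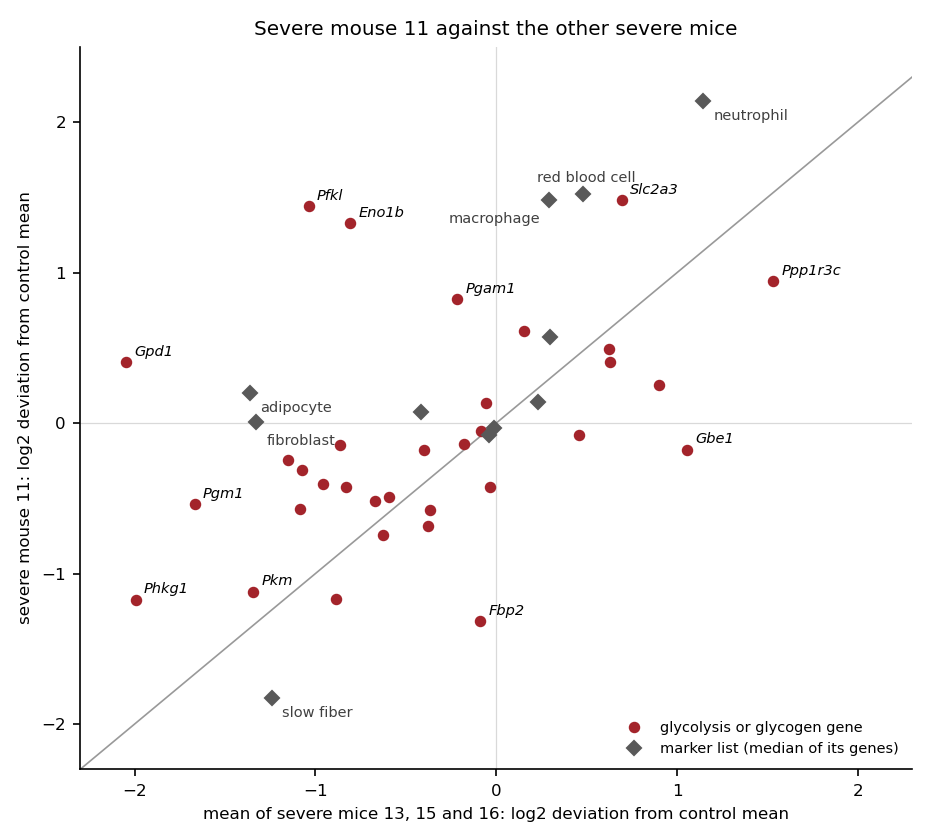
Log2 deviation from the control mean in severe mouse 11 (vertical axis) against the mean of severe mice 13, 15 and 16 (horizontal axis) for the 33 genes (red circles) and for the medians of marker lists of muscle fibers and other cells (grey diamonds), with the line of equality. Pfkl, Gpd1 and Eno1b lie more than 2 above the line, as macrophage, adipocyte and fibroblast markers lie above it, and Pkm lies close to it.

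Several genes had more than 1 probe past the detection filter, 13 of them, and most of these agreed in direction. Both probes of Pgm1 fell in both stages (-1.16 and -1.22 in moderate, -1.39 and -1.37 in severe cachexia). All 3 probes of Phka1 fell in severe cachexia (-0.94, -0.96 and -1.61). The other 2 Pfkm probes fell in severe cachexia more than the one used (-0.81 with an adjusted p of 0.0116 and -0.87 with 0.00387), and a second Tpi1 probe fell in both stages (-0.74 with 0.0205 and -1.02 with 0.003). A dim second probe of Pkm fell in moderate (-0.73, adjusted p = 0.00618) but did not pass in severe cachexia (-0.31, adjusted p = 0.175). A second Phkb probe fell in both stages (-0.44 with 0.0346 and -0.52 with 0.0142), where the brighter one missed the threshold. A second Pgam1 probe fell in moderate cachexia (-0.74, adjusted p = 0.0448) and had a change of 0.011 (adjusted p = 0.978) in severe cachexia. Pgk1 was the gene whose probes passed in opposite directions.

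Promoters are shown for 2 genes that fell and 2 that rose, because members moving both ways held the same short motif. RefSeq windows on GRCm38.p6, of 250 bases before and 50 after a transcript start, were at hand for 30 of the 33 genes. Capitals mark ACGTG, the core that hypoxia-inducible factors bind, and its reverse complement CACGT; where both overlap they spell the E-box CACGTG. The Ldha window (chr7:46845554-46845853, + strand) holds 2 E-boxes and a further core, the Pgk1 window (chrX:106186850-106187149, + strand) 2 cores, the Gyg window (chr3:20155067-20155366, - strand) an E-box, and the Ppp1r3c window (chr19:36736555-36736854, - strand) an E-box and a further core.
Ldha: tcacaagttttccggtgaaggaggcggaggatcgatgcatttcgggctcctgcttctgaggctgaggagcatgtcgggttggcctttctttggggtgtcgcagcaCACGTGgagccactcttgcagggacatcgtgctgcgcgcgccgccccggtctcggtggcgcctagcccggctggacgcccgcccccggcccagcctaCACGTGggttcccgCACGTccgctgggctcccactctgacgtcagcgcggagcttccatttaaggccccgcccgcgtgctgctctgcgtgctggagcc
Pgk1: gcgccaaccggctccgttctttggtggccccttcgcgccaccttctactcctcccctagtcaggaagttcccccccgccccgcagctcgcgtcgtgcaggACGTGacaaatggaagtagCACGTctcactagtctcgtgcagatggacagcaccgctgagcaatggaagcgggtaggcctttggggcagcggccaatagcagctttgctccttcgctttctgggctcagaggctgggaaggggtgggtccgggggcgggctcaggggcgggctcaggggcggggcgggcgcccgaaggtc
Gyg: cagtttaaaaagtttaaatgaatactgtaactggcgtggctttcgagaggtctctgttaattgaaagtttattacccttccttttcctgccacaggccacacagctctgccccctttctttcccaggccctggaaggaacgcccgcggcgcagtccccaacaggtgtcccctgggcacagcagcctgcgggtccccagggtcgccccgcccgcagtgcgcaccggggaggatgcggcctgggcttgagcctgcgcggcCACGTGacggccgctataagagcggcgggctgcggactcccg
Ppp1r3c: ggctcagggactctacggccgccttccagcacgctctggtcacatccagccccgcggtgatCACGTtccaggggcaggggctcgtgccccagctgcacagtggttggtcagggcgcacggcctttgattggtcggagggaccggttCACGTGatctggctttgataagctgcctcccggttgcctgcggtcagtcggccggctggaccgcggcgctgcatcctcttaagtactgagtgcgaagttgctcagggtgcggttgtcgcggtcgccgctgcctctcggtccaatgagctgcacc

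The core was in at least 1 window of 9 of 13 genes that fell (69.2%), 3 of 5 that rose and 6 of 12 that were not called, against 21.8% of the 27025 genes with a window. The letters CACGTG were in at least 1 window of 3 genes that fell, 2 that rose and 2 that were not called, against 8.09% of all genes with a window. TTCNNNGAA, the spacing that STAT factors bind, was in a window of 1 gene, Pfkm, against 9.55% of all genes, and TGTTTAC, a FOXO motif, was in none, against 4.05%. TGTTCT, the glucocorticoid receptor half-site, was in a window of 6 genes that fell, 1 that rose and 2 that were not called, against 21.3% of all genes. Both strands were searched. A match is a description of these letters only.

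Other genes of the pathway, from lists that hold none of the 33, are given for context. Among all genes 18.9% rose and 22.2% fell in moderate cachexia, and 15.6% rose and 17.8% fell in severe cachexia. Between the stages 6.98% of all genes were called. The lists are small and were not tested, so the counts here and in the following paragraphs are not read as results about them. Among 21 genes of glycogen branching, lysosomal breakdown and control, 3 rose and 8 fell in moderate and 1 rose and 6 fell in severe cachexia. Calm2, a calmodulin gene whose product is also a subunit of phosphorylase kinase, fell by 1.58 (SE 0.14, adjusted p = 1.6e-05) and by 0.87 (SE 0.13, adjusted p = 0.000602). Prkag3, the fast-muscle AMP-activated kinase subunit tied to glycogen content in pigs, fell by 2.31 (SE 0.34, adjusted p = 0.000343) and by 2.11 (SE 0.31, adjusted p = 0.000508). Gaa, the acid glucosidase that degrades glycogen in lysosomes, rose by 0.97 (SE 0.18, adjusted p = 0.00139) and by 1.18 (SE 0.17, adjusted p = 0.000388). Ppp1r3d, a relative of Ppp1r3c, was 0.76 higher in severe than in moderate cachexia (adjusted p = 0.0256), a call that was lost without moderate mouse 5 (0.704, adjusted p = 0.109) or moderate mouse 12 (0.624, adjusted p = 0.0926). Against controls Ppp1r3d fell in moderate cachexia and did not pass in severe cachexia.

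Of 6 genes of glucose uptake and its regulation, 2 rose and 2 fell in moderate cachexia and 1 fell in severe cachexia. Between the stages 3 of the 6 differed. Tbc1d1, which holds back glucose transporters in muscle, was 1.20 higher in severe than in moderate cachexia (SE 0.22, adjusted p = 0.00829). Against controls it fell by 1.01 (adjusted p = 0.00371) in moderate cachexia and had a change of 0.19 (adjusted p = 0.5) in severe cachexia. Its relative Tbc1d4 was lower in severe than in moderate cachexia (-0.85, SE 0.16, adjusted p = 0.0102). Tbc1d4 rose by 0.95 (adjusted p = 0.000933) against controls in moderate cachexia and had a change of 0.097 (adjusted p = 0.651) in severe cachexia. Txnip, an inhibitor of glucose uptake, was also lower in severe than in moderate cachexia (-1.01, SE 0.21, adjusted p = 0.0157), with changes against controls of -0.17 (adjusted p = 0.524) in severe and 0.84 (adjusted p = 0.00779) in moderate cachexia. Without moderate mouse 5 the Tbc1d1 call between the stages was lost (1.07, adjusted p = 0.0536), and without moderate mouse 12 that of Txnip (-0.887, adjusted p = 0.0609). Slc2a8, an intracellular sugar transporter, fell by 0.48 (adjusted p = 0.016) in severe cachexia, and not without severe mouse 13 (-0.402, adjusted p = 0.0527) or severe mouse 16 (-0.441, adjusted p = 0.0539). Among 6 glycolytic isozymes and side steps, 3 fell in moderate, and 1 rose and 3 fell in severe cachexia. Bpgm, which makes bisphosphoglycerate, fell by 0.93 (adjusted p = 0.000904) and by 0.42 (adjusted p = 0.0417), and Gpd2, the mitochondrial partner of Gpd1, by 1.09 (adjusted p = 0.00406) and by 0.79 (adjusted p = 0.0185). The severe call of Bpgm was lost without any 1 of control mice 1 and 2, moderate mouse 12 and severe mice 13, 15 and 16 (-0.462 to -0.331, adjusted p of 0.0504 to 0.115), and that of Gpd2 without severe mouse 13 (-0.724, adjusted p = 0.05) or severe mouse 16 (-0.666, adjusted p = 0.0626). Ldhd, a lactate dehydrogenase of mitochondria, fell by 1.05 (adjusted p = 0.00335) in severe cachexia.

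Of 3 genes of lactate transport none passed in moderate cachexia, and in severe cachexia Bsg, the chaperone of lactate transporters, fell by 0.85 (adjusted p = 0.00305) while its relative Emb rose by 0.71 (adjusted p = 0.0335). The Emb call was lost without any 1 control mouse, severe mouse 11 or severe mouse 15 (0.471 to 0.755, adjusted p of 0.0525 to 0.0795). Among 5 gluconeogenic genes 3 fell in each stage and none rose. Pcx, pyruvate carboxylase, fell by 2.09 (adjusted p = 0.000901) in moderate and by 1.92 (adjusted p = 0.00125) in severe cachexia. Slc37a4, the glucose phosphate carrier, fell by 1.76 and 1.83, and Pck1 fell by 1.45 and 1.67. Pcx and Pck1 are also abundant in adipocytes, whose markers fell as given above. Of 9 genes of the pentose phosphate and hexosamine branches, Gfpt2, which opens the hexosamine branch, rose by 1.66 (adjusted p = 5.13e-05) and 1.28 (adjusted p = 0.00027), and Rpia, ribose phosphate isomerase, fell by 0.98 and 0.82. Among 14 transcription factors known to act on glycolytic genes, 3 rose and 5 fell in moderate and 2 rose and 3 fell in severe cachexia. Of all genes, 41.1% were called in moderate and 33.3% in severe cachexia. Arnt, the partner of hypoxia-inducible factors, rose by 1.29 (adjusted p = 8.74e-05) and 0.68 (adjusted p = 0.00356), Esrra, an estrogen-related receptor, fell by 1.17 and 0.95, and Mef2c, a muscle factor, fell by 1.94 and 1.63. Mlxipl, a carbohydrate-responsive factor, was 0.82 higher in severe than in moderate cachexia (adjusted p = 0.00698). Against controls Mlxipl fell in moderate cachexia and did not pass in severe cachexia.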

How the data were processed

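Quadriceps RNA of 11 mice was hybridised to Illumina MouseWG-6 v2.0 arrays. The intensity values are as deposited by the authors, under the name non-normalized. Of them 28.5% were below 0, as after background subtraction. Sorted signals differed by at most 0.319 between arrays, as after normalization between arrays. The methods name GeneSpring GX for normalization and do not say which step gave these signals. Detection p-values, 1 beside each signal, are also as deposited by the authors. The authors also deposited ratio values, each signal (at least 1) divided by the control median of its probe. For BeadStudio and GeneSpring settings, and for which chip held which array: not given in the sources used here. The number of arrays limits the precision. Labels name separate mice only as replicates, so p-values measure the spread between these samples.

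With R 4.3.3 and limma 3.58.1, intensities went through neqc, which infers background from detection p-values, applies normexp with an offset of 16, and takes quantile-normalized log2 values. A probe stayed (18837 of 45281) if some group had it detected at p under 0.01 on all its arrays. Symbols were updated through Entrez IDs in the RefSeq gene table (GRCm38.p6), and the brightest probe stood for each gene, which gave 10134 genes. A single symbol belonged to 34885 probes; 18 probes with several and 10378 with none were not used by name. A model of 3 group means (lmFit, eBayes with trend) was fitted to all genes, with Benjamini-Hochberg adjustment over all of them. Probes were also fitted one by one. The genes and lists were chosen with earlier results of these data known, so no list was tested. Values of each mouse are given for the 14 called genes with the smallest p (Pygm among them), plus Gapdh. For the lists outside the 33 genes, changes are given for up to 2 genes a list and comparison. Values by mouse of Pfkl, Gbe1 (severe and control mice) and Fbp2 (severe mice) and the changes of Txnip were added after they were seen. Promoter motifs were chosen with the results known. The fit was tested on simulated data in which 200 of 10134 genes were shifted. At a shift of 1 on the log2 scale it found 79 of 100 for moderate and 87 of 100 for severe cachexia, and at 0.5 it found 20 and 29. Far fewer genes were shifted there than were called in the data (41.1% in moderate and 33.3% in severe cachexia). The numbers found may therefore not hold for the data. Alternatives are named in the closing section. Figures were drawn with matplotlib 3.10.9. Other experiments of the study are not analysed here.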

Additional observations from a re-analysis of the deposited data

Results flagged for a closer look

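In groups of 4 mice, a value was looked at again where its gap to the nearest other value was larger than Dixon's 95% critical share of the group's range. Of 66 groups of the 33 genes, 6 met this, where chance gives about 1 in 20, or 3.3. All 6 were the highest of their group, and they came from 2 mice. Severe mouse 11 stood above the other severe mice in Pfkl (log2 signal 10.16, against 7.45 to 7.878), Pfkp (6.203, against 5.705 to 5.773) and Pygb (7.178, against 6.191 to 6.351). Control mouse 2 stood above the other controls in Pkm (13.94, against 13.41 to 13.44), Slc16a3 (7.695, against 6.507 to 6.62) and Ugp2 (11.73, against 11.32 to 11.37). Without control mouse 2 the Pkm changes were -0.998 (adjusted p = 0.00286) in moderate and -1.16 (adjusted p = 0.00139) in severe cachexia, and both still passed.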

How the results depend on the processing

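Results were recomputed under 24 other settings. These were no background correction, an offset of 50, median scaling, the deposited ratios without and with a replicate block, 3 other detection filters, averaged probes of a gene, a fit of the compared groups alone, no intensity trend, the t-test the methods name, array weights, and each of the 11 mice left out. Pkm, Pygb and Ugp2 passed in both stages, and Ppp1r3c, Gyg, Pgm1, Phkg1 and Phka1 in severe cachexia, in all 24. Leaving out 1 mouse, the genes called ranged from 6 (without moderate mouse 5) to 17 (without severe mouse 11) in moderate cachexia. In severe cachexia they ranged from 12 (without control mouse 2) to 21 (without severe mouse 11), with 13 without severe mouse 13. Between severe and moderate they ranged from 0 to 1, with 1 without moderate mouse 9, severe mouse 11 or severe mouse 15. With array weights 2 were called there. At 2-fold or more with an unadjusted p under 0.05 limma called 5 in moderate (15.2%, against 9.66% of all genes) and 5 in severe cachexia (15.2%, against 6.77%), and the methods' t-test 5 and 4. That t-test with adjusted p-values called 10 in severe cachexia. Shares of all genes are not given for array weights or the t-test. Those counts therefore cannot show a change particular to the genes followed here. The causes were not tested.

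The median change of the 33 genes in moderate cachexia was -0.266 with no detection filter, -0.41 with detection on all arrays and -0.394 with array weights. Leaving out 1 mouse it was -0.5 (without moderate mouse 9) to -0.277 (without moderate mouse 5), and in severe cachexia -0.434 to -0.231 (the smaller size without severe mouse 13).

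Among the 33 genes no called change turned its sign. Changes not called that did were 5 in moderate (Pfkp, Aldoa, Ldhb, Gys1 and Gbe1) and 3 in severe cachexia (Pgam1, Pfkfb3 and Gys1), at most 0.134 in size with all mice, and 16 severe minus moderate differences, at most 0.531. Among the 15 genes given by mouse, 9 such differences turned. Pkm was at 0.133 with the mean of its probes, and with array weights Pygb was at -0.0995, Ugp2 at 0.0681 and Gapdh at 0.0111. With 1 mouse left out, the differences spanned 0 in Pkm (-0.323 to 0.0746), Pgk1 (-0.128 to 0.093), Pgm1 (-0.51 to 0.0591), Pygb (-0.194 to 0.136), Ugp2 (-0.186 to 0.0973), Phka1 (-0.458 to 0.0353), Ldha (-0.396 to 0.0321), Gpd1 (-0.271 to 0.733) and Gapdh (-0.1 to 0.0414).

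Replicate numbers of the deposited ratios did not pair the samples: deviations of same-numbered samples correlated at -0.348 to 0.124 over 10 pairs. With a replicate block on these ratios 9 genes passed in moderate, 14 in severe cachexia and 0 between them, against 11, 17 and 0 without it. Shares of all genes are not given for these fits, so the counts cannot show a change particular to the genes followed here. The probes of Ppp1r3c (deposited signals up to 29978), Aldoa (27937), Eno3 (27726), Pgm1 (26840) and Pfkm (25708), of which all but Aldoa and Eno3 were called, reached or neared the highest signal of the arrays, where differences can be compressed; this was not tested. Genes near background carry the least signal, and a gene that misses the threshold may still differ.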
